A study of Saccharomyces cerevisiae with 8 samples.

Results

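The glyoxylate cycle and gluconeogenesis genes described here are 8 genes of budding yeast, Saccharomyces cerevisiae, chosen by name: MLS1 (YNL117W), ICL1 (YER065C), MDH2 (YOL126C), MDH3 (YDL078C), PCK1 (YKR097W), FBP1 (YLR377C), ACS1 (YAL054C) and JEN1 (YKL217W). They are 8 of the 6212 gene IDs in the deposited table. MLS1, ICL1, MDH2, MDH3, FBP1 and JEN1 (6 genes) had a value on all 8 arrays, and PCK1 and ACS1 (2 genes) had a value on none.

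RNA was compared between strain BY4741 and a pif1::KanMX mutant of it, which lacks a DNA helicase that acts in the nucleus and in mitochondria, with or without zinc chloride at 5 mM for 1 h. The series concerns zinc tolerance of the mutant. Each array carried a pair of RNAs, labelled with Cy3 and Cy5, and each of the 4 comparisons had 2 arrays with the dyes exchanged: zinc-treated over untreated wild type, zinc-treated over untreated pif1, pif1 over wild type without zinc, and pif1 over wild type with zinc. All cells were grown in YPD, a rich medium that contains glucose, at 28 °C to an A660 of 0.6. Zinc-treated cells and the untreated cells paired with them were then grown for 60 min more. The untreated cells on the arrays that compare the strains were harvested without those 60 min, so the untreated RNAs of the zinc arrays and of the mutant arrays need not be alike. The BY4741 background lacks HIS3, LEU2, MET15 and URA3 function in every group. The labels do not say whether the 2 arrays of a comparison came from separate cultures, so p-values measure only the spread between these arrays, which may be technical.

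The glyoxylate cycle lets yeast build organic acids, and from them sugars, out of acetate or ethanol. It shares enzymes with the tricarboxylic acid cycle but bypasses the steps that release carbon dioxide. Isocitrate lyase (ICL1) splits isocitrate into succinate and glyoxylate, malate synthase (MLS1) joins glyoxylate to acetyl-CoA, and malate dehydrogenases turn malate into oxaloacetate. Phosphoenolpyruvate carboxykinase (PCK1) and fructose-1,6-bisphosphatase (FBP1) then carry the steps of gluconeogenesis that glycolysis cannot run backwards. ACS1 makes acetyl-CoA from acetate, and JEN1 imports lactate and pyruvate. Most of these genes are repressed by glucose, so YPD is a medium in which their transcripts are usually scarce.

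Each value below is a log2 ratio with the RNA named first on top, centred on the median of its array, and each mean is given with the SD of its 2 arrays (n = 2). A value of 0 is the ratio of the median gene on that array. Between 73.3% and 82.4% of the IDs had a value on a given array. PIF1 itself gave −4.88 on replicate 2 of the comparison without zinc and −3.69 on replicate 2 of that with zinc, and had no usable value on the other arrays. Over all genes the correlation within a pair of arrays was 0.868 (zinc, wild type), 0.573 (zinc, pif1), 0.586 (pif1 without zinc) and 0.439 (pif1 with zinc). The within-pair SD was 0.431 for zinc in pif1 and 0.215 to 0.235 in the other comparisons, while the main test pooled the spread over all 8 arrays. Adjusted p-values for zinc in pif1 are therefore given also from a fit of its own 2 arrays. In the fits of own arrays given below, the adjusted p of named genes followed the size of the mean and not the gene's own SD. For zinc in pif1, HAP3 at 0.85 ± 0.60 had a limma adjusted p of 0.0436 and RMD5 at 0.61 ± 0.07 one of 0.198. Such a p-value is thus no check on how closely a gene's own 2 arrays match. Of 51 genes that were at least 4-fold higher with zinc in the wild type, the arrays that compare the strains measured 98.0% and 100.0% where their label gives no zinc, and 64.7% and 80.4% where it gives zinc. These arrays, called the mutant arrays, are described by their labels throughout, and the part of this difference in their values was not tested.

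Of the glyoxylate cycle's own enzymes, the malate synthase transcript was strongly lower after zinc and the isocitrate lyase transcript was not detectably changed. In the wild type, MLS1 gave −2.23 on replicate 1 and −1.93 on replicate 2. Both arrays lay far below 0, although the dyes were exchanged between them. The mean was −2.08 ± 0.22, a 4.23-fold lower level with zinc (95% interval −2.58 to −1.58, limma adjusted p = 0.000297 over 4635 genes). Only 7 of the genes tested in the wild type had a lower mean, as MLS1 was in place 8 from the bottom. Both arrays were at least 2-fold lower for 1.98% of those genes.

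In pif1, MLS1 gave −0.31 on replicate 1 and −1.28 on replicate 2. Both arrays were below 0 but far apart, and both were nearer to 0 than either wild-type array. The mean was −0.79 ± 0.69, a 1.73-fold lower level (limma adjusted p = 0.0247 over 4272 genes). The mean rests mostly on replicate 2, since without it the value was −0.31, while without replicate 1 it was −1.28. A fit with an array left out keeps 1 array of the comparison and takes its spread from the other comparisons. No p-value is given for such a fit. The fit of the 2 pif1 arrays alone gave an adjusted p of 0.0669, and with all arrays scaled to one spread the mean was −0.51 (adjusted p = 0.115).

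On the arrays that compare the strains, MLS1 gave −0.53 and −0.18 without zinc and 0.52 and 0.44 with zinc. It thus lay below 0 on both arrays without zinc and above 0 on both with zinc. Both arrays of a pair lay on the same side of 0 for 64.4% of all genes without zinc and 56.4% with zinc. How many genes changed side between the pairs was not counted. The MLS1 means were −0.36 ± 0.25 (limma adjusted p = 0.529) and 0.48 ± 0.06 (adjusted p = 0.551), neither past the threshold of 0.05. For the comparison with zinc the adjusted p was 0.0471 from its own arrays and 0.0389 with the arrays scaled to one spread, where the mean was 0.75. DAL7, a second malate synthase gene whose sequence is close to that of MLS1, had values on 2 arrays only, 0.12 on wild-type zinc replicate 1 and −0.10 on pif1 replicate 2 without zinc. Signal from DAL7 RNA on the MLS1 spots cannot be told apart from that of MLS1 here.

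ICL1, the other enzyme particular to the cycle, stayed close to 0. With zinc it gave 0.12 and −0.11 in the wild type, on either side of 0, with a mean of 0.006 ± 0.163 (limma adjusted p = 0.982). The 95% interval of −0.32 to 0.34 does not reach the change of MLS1, but it covers only the spread between arrays. How near the ICL1 or MLS1 signal lay to background was not tested, since only ratios were analysed. In pif1 it gave −0.41 and −0.17, both below 0, with a mean of −0.29 ± 0.17 that did not pass (adjusted p = 0.166). The ratios of pif1 over wild type were 0.09 and −0.10 without zinc and −0.07 and 0.23 with zinc, so that each pair straddled 0 (adjusted p = 0.995 and 1.0). On the same array, MLS1 minus ICL1 was −2.35 and −1.82 on the log2 scale in the wild type. In pif1 the corresponding differences were 0.10 and −1.11, so the order of both genes was not the same on its 2 arrays.

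**Figure D1:**
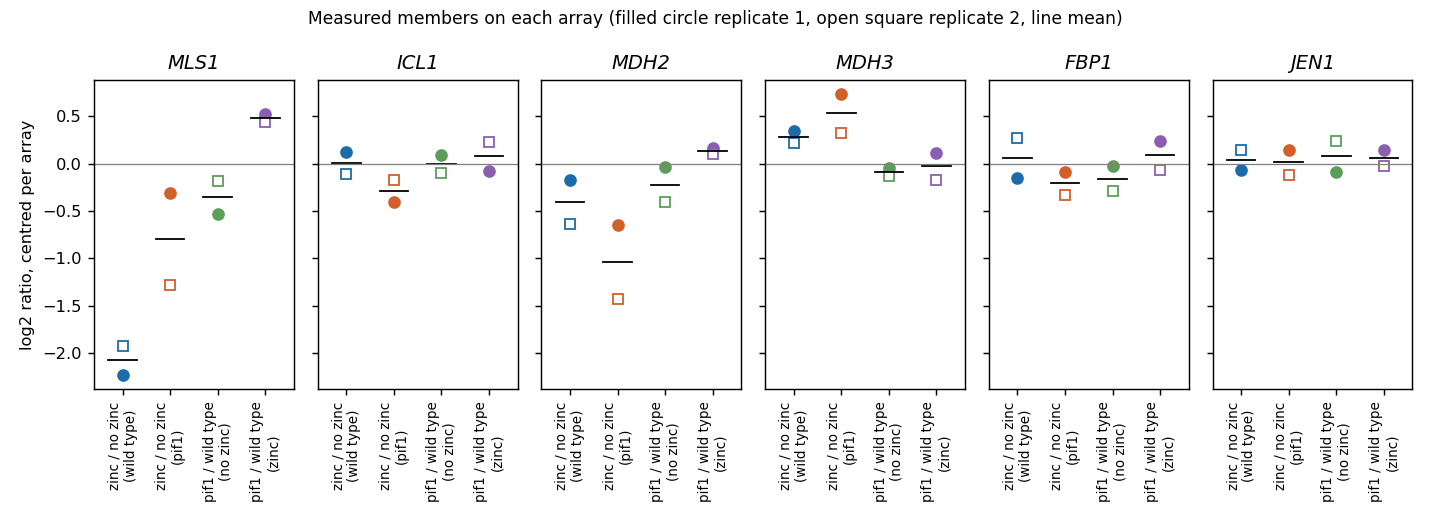
Log2 ratio (vertical axis, centred per array) of the 6 measured genes in the 4 comparisons. Filled circles are replicate 1, open squares replicate 2 and lines their mean; MLS1 in the wild type with zinc, at −2.23 and −1.93, lies below every other value shown.

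Of the malate dehydrogenases, the cytosolic MDH2 had ratios below 0 and the peroxisomal MDH3 ratios above 0 on all 4 zinc arrays. In the fit over all arrays both passed in pif1 and neither in the wild type, and the pif1 calls depended on the processing as given below. MDH2, the cytosolic enzyme that serves gluconeogenesis, gave −0.18 and −0.64 in the zinc-treated wild type and −0.65 and −1.43 in zinc-treated pif1. All 4 arrays lay below 0, with replicate 2 the lower array in each strain. The lower wild-type array and the higher pif1 array were almost level. The combined difference in zinc response between the strains, given below, was −0.14 and did not pass (limma adjusted p = 0.993). The wild-type mean of −0.41 ± 0.33 did not pass in the fit over all arrays (limma adjusted p = 0.166, 95% interval −0.87 to 0.06) but did in the fit of its own arrays (adjusted p = 0.037), with replicate number as a block (0.0408) and in the loop fit over all 4 kinds of RNA, where it was −0.65 (0.0444). The pif1 mean was −1.04 ± 0.55, a 2.05-fold lower level (limma adjusted p = 0.00615, and 0.00915 from its own arrays). With all arrays scaled to one spread it was −0.66 (adjusted p = 0.0504), just outside the threshold. Leaving out replicate 2 gave −0.65, and leaving out replicate 1 gave −1.43.

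MDH3, the peroxisomal enzyme, was above 0 on all 4 zinc arrays. It gave 0.35 and 0.22 in the wild type, a mean of 0.28 ± 0.09 that did not pass (limma adjusted p = 0.184, 95% interval −0.06 to 0.62). In pif1 it gave 0.74 and 0.32, a mean of 0.53 ± 0.29 and a 1.44-fold higher level (limma adjusted p = 0.0266). This call was not made from the 2 pif1 arrays alone (adjusted p = 0.284) or with arrays scaled to one spread (0.34, adjusted p = 0.191). Without replicate 1 the value was 0.32.

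MDH1 encodes the mitochondrial malate dehydrogenase and is no member of the group, but completes the family. After zinc it gave 1.16 and 0.71 in the wild type, with 1.64 and 0.76 in pif1, above 0 on all 4 arrays (means 0.93 ± 0.31 and 1.20 ± 0.62, limma adjusted p = 0.0177 and 0.00596). The pif1 call also passed from its own arrays (adjusted p = 0.00166), while with arrays scaled to one spread neither call passed (adjusted p = 0.0772 and 0.0702). On every zinc array the cytosolic MDH2 had the lowest ratio of the family. MDH3 minus MDH2 was 0.52 and 0.85 in the wild type and 1.38 and 1.75 in pif1, and MDH1 minus MDH2 was 1.33 and 1.35 in the wild type and 2.28 and 2.19 in pif1. These differences within arrays were formed after the values were known and are a description.

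On the arrays that compare the strains, MDH2 gave −0.04 and −0.41 without zinc and 0.17 and 0.10 with zinc. MDH3 gave −0.05 and −0.13 without zinc and 0.11 and −0.17 with zinc. Neither gene passed in either comparison (limma adjusted p of 0.704 to 1.0). MDH2 lay below 0 on both arrays without zinc and above 0 on both with zinc, a change of side whose share over all genes was not counted.

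FBP1, which removes a phosphate from fructose-1,6-bisphosphate, showed no detectable change. It gave −0.15 and 0.27 for zinc in the wild type, on either side of 0 (mean 0.06 ± 0.29, limma adjusted p = 0.814, 95% interval −0.31 to 0.42). In pif1 it gave −0.08 and −0.33, both below 0 (mean −0.21 ± 0.17, adjusted p = 0.361). The ratios of pif1 over wild type were −0.03 and −0.29 without zinc (adjusted p = 0.735) and 0.24 and −0.07 with zinc (adjusted p = 1.0).

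JEN1, the lactate and pyruvate permease, also showed no detectable change. It gave −0.07 and 0.14 in the wild type and 0.14 and −0.12 in pif1, so both pairs straddled 0 (means 0.04 ± 0.15 and 0.01 ± 0.18, limma adjusted p = 0.88 and 0.951). The wild-type 95% interval was −0.30 to 0.37. How near the FBP1 and JEN1 signals lay to background was not tested either. Over wild type, pif1 gave −0.08 and 0.24 without zinc and 0.14 and −0.03 with zinc, and neither mean passed (adjusted p = 0.88 and 1.0).

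PCK1 and ACS1 had no value on any array, as did 693 of all 6212 IDs (11.2%). The labels describe a filter that dropped spots smaller than 120 um and spots dimmer than 100 units, and whether low signal removed these genes was not tested. Among 101 related pathway genes in the table, 13 also had no value on any array (12.9%). They include SFC1, the mitochondrial succinate-fumarate carrier, ADH2, the alcohol dehydrogenase that uses ethanol, and CAT8, SIP4 and ADR1, activators of genes for growth without glucose. SNF1, the protein kinase that relieves glucose repression, had none either. These regulators could therefore not be examined, while RDS2 and ERT1, regulators of gluconeogenesis genes, had values on all 8 arrays.

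Counted together, 1 of the 6 measured members was called lower and 0 higher for zinc in the wild type, where 15.6% of all genes tested were called lower and 14.7% higher. MDH2 was a further member called lower from the wild-type zinc arrays alone, where 21.7% of genes were. In pif1, 2 were called lower and 1 higher, against 15.8% and 15.5% of all genes. From the 2 pif1 arrays alone only MDH2 passed, against 6.81% of genes called lower. For pif1 over wild type 0 of the 6 were called, without zinc (2.03% of genes called by limma in either direction) or with zinc (1.18%). MLS1 was called higher with zinc from those arrays alone and with scaled arrays, where 4.49% and 6.06% of genes were. Both arrays of a pair lay on the same side of 0 for 3 of the 6 members for zinc in the wild type (79.5% of all genes), 5 for zinc in pif1 (65.6%), 4 for pif1 without zinc (64.4%) and 2 with zinc (56.4%). For zinc, the median of the 6 members was 0.02 in the wild type and −0.25 in pif1, while that of all genes was −0.002 and 0.01. With 6 genes these counts are a description, and the calls did not share a direction in pif1.

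**Figure D2:**
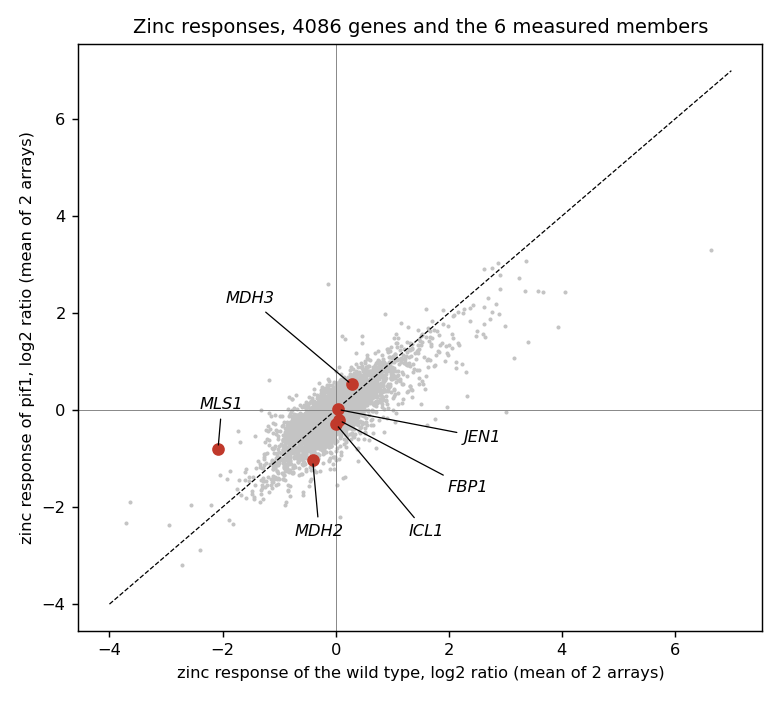
Mean log2 ratio with zinc over without zinc in the wild type (horizontal axis) and in pif1 (vertical axis), each over 2 arrays; grey points are all genes tested in both and red points the 6 measured genes, and the dashed line marks equal ratios. MLS1 lies at −2.08 and −0.79, to the left of the cloud and above the line, and MDH2 at −0.41 and −1.04, below the line.

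The design estimates how far the zinc responses of both strains differ in 2 ways, from the zinc arrays (pif1 minus wild type) and from the mutant arrays (with zinc minus without), which use different arrays. For MLS1 the zinc arrays gave 1.29 and the mutant arrays 0.84, both in the direction of a smaller fall in pif1 with the mutant arrays as labelled. With their labels for zinc exchanged, an alternative added after seeing which genes these arrays measured, the mutant arrays gave −0.84, opposite in sign to the zinc arrays. The combined difference was 1.06 with a standard error of 0.219 (95% interval 0.56 to 1.56). As labelled, it was in place 3856 of 3857 from the bottom, and no other gene was as high as MLS1 in both estimates. With those labels exchanged it was 0.22 (limma adjusted p = 0.848), in place 3370. It did not pass across all genes (limma adjusted p = 0.271), nor did the zinc arrays alone (adjusted p = 0.138) or the mutant arrays alone (adjusted p = 0.902). Without replicate 2 of zinc in pif1 the combined difference as labelled was 1.30, and with each other array left out it was 0.82 to 1.15. A fit with an array left out drops the spread of that array's pair, so no p-value is given for it.

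No gene passed for this difference under limma, while 230 of 3857 genes (5.96%) had an unadjusted p under 0.05. For MDH2 the estimates had opposite signs, −0.63 from the zinc arrays and 0.36 from the mutant arrays, a gap of −0.99 that 3.97% of genes reached in size. Its combined difference was −0.14 (adjusted p = 0.993). With the mutant arrays' labels for zinc exchanged, its estimates were −0.63 and −0.36, of one sign, with a gap of −0.27 that 41.9% of genes reached and a combined difference of −0.49 (limma adjusted p = 0.519). For MLS1 the gap as labelled was 0.45, which 25.8% of genes reached, and with the labels exchanged 2.12, which 0.0778% reached. A gene's gap with the labels exchanged is by construction a fixed multiple of its combined difference as labelled. It restates the place of that difference among all genes and is no separate result. The combined differences of ICL1 (−0.10), MDH3 (0.15), FBP1 (−0.01) and JEN1 (−0.02) were near 0, each with an adjusted p of 0.993. Across all 3857 genes the estimates correlated at −0.251 as labelled, with a median absolute gap of 0.269, and at 0.251 with those labels exchanged, with a median absolute gap of 0.229. The change in sign of this correlation is fixed by the exchange. The estimates for MLS1, MDH3 and JEN1 lay closer together as labelled, and those for MDH2, ICL1 and FBP1 with the labels exchanged. This follows only from whether a gene's estimates share a sign as labelled. With the labels exchanged, 337 of the 3857 genes had an unadjusted limma p under 0.05. The label of the mutant arrays was not settled here. The untreated RNAs of both kinds of array were also harvested at different times, as given above, and the part of that in the gap was not tested.

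**Figure D3:**
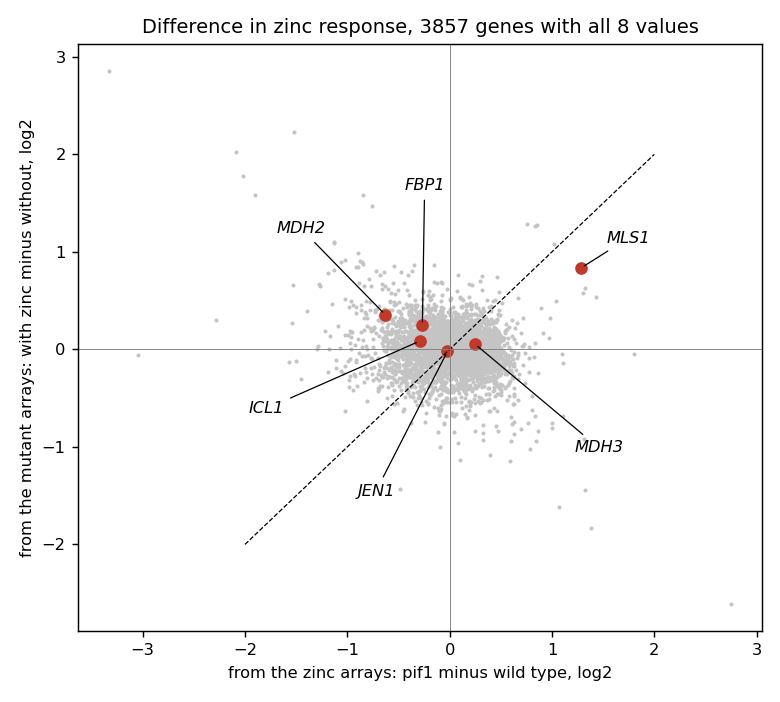
Difference in zinc response between pif1 and wild type, in log2, estimated from the zinc arrays (horizontal axis) and from the mutant arrays (vertical axis); grey points are the 3857 genes with all 8 values, red points the 6 measured genes, and the dashed line marks equal estimates. With the mutant arrays as labelled, MLS1 lies at 1.29 and 0.84, in the upper right, and MDH2 at −0.63 and 0.36, in the upper left.

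Genes that work beside the glyoxylate cycle moved both ways with zinc. This list covers enzymes and carriers that share or move its intermediates. For it and each list below, the shares of all genes to set beside the counts were 14.7% higher and 15.6% lower in the wild type (7.85% and 7.53% with arrays scaled to one spread). In pif1 they were 15.5% and 15.8% (5.5% and 6.81% from its own arrays). Of its 14 genes, 8 were tested in the wild type, and 3 rose and 4 fell (list median −0.46, against −0.002 for all genes). With arrays scaled to one spread, 1 rose and 2 fell. CIT2, the peroxisomal citrate synthase that feeds the cycle, rose by 1.03 ± 0.09 (limma adjusted p = 0.000635) in the wild type and by 0.87 ± 0.08 (adjusted p = 0.00143, own arrays 0.0394) in pif1. OAC1, the mitochondrial oxaloacetate carrier, fell by 1.25 ± 0.25 in the wild type (adjusted p = 0.000638). MAE1, the malic enzyme that makes pyruvate from malate, fell by 0.86 ± 0.11 in the wild type (adjusted p = 0.00275) and by 0.90 ± 0.24 in pif1 (adjusted p = 0.00213, own arrays 0.0297). In pif1, 3 of 8 rose and 2 fell, of which OAC1 at −0.66 ± 0.28 did not pass from its own arrays (adjusted p = 0.153).

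ACO1, the aconitase that makes isocitrate for both cycles, gave −0.58 and −0.60 for zinc in the wild type, a fall of 0.59 ± 0.02 (limma adjusted p = 0.0121, and 0.0737 with arrays scaled to one spread). In pif1 it gave −0.32 and −0.43, both below 0 but not past the threshold (adjusted p = 0.0636). It was the 1 list gene that was called in both comparisons of the strains, 3.18-fold higher in pif1 without zinc (1.67 ± 0.19, limma adjusted p = 0.00125) and 2.19-fold higher with zinc (1.13 ± 0.16, adjusted p = 0.00858). No member was called in those comparisons. IDP2, the cytosolic isocitrate dehydrogenase, had values on 3 arrays only and was not tested: 0.80 for zinc in the wild type, −0.33 for zinc in pif1 and 0.18 for pif1 over wild type with zinc.

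Among genes for the use of acetate, ethanol and lactate, the aldehyde dehydrogenases that make acetate were higher with zinc in the wild type. Of 8 genes tested, 3 rose and 1 fell (median 0.28). The mitochondrial ALD4 rose by 1.04 ± 0.11 (limma adjusted p = 0.000763), the cytosolic ALD6 by 1.01 ± 0.22 (adjusted p = 0.00899) and ACH1, an acetyl-CoA hydrolase and CoA transferase of mitochondria, by 0.76 ± 0.21 (adjusted p = 0.00407). ATO3, a plasma membrane protein of the acetate and ammonium transporter family, fell by 1.46 ± 0.06 (adjusted p = 0.000471). In pif1, ATO3 fell by 1.37 ± 0.46 (adjusted p = 0.000641, own arrays 0.000189), and it was the only call of this list that the pif1 arrays gave alone. ALD4 at 0.70 ± 0.21 and ACH1 at 0.65 ± 0.01 passed only with the pooled spread (adjusted p = 0.00523 and 0.00828, own arrays 0.122 and 0.166). ALD6 gave 0.69 and −0.21 in pif1, on either side of 0, and was not called (0.24 ± 0.63, limma adjusted p = 0.436).

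Among regulators of carbon source response, 5 of 26 tested rose (14.7% of all genes) and 1 fell (15.6%) with zinc in the wild type (median 0.16). NRG1 and NRG2, repressors of glucose-repressed genes, rose by 1.31 ± 0.19 (limma adjusted p = 0.00115) and by 0.82 ± 0.35 (adjusted p = 0.00889). MIG1, the zinc-finger repressor of many glucose-repressed genes, rose by 0.43 ± 0.15 (adjusted p = 0.0353), and PIP2, an activator of peroxisomal genes, by 0.63 ± 0.15 (adjusted p = 0.0293). With arrays scaled to one spread, only 1 of 26 rose in the wild type, which was NRG1 (adjusted p = 0.0143). In pif1, 4 of 23 rose (15.5% of all genes) and 3 fell (15.8%). NRG1 at 0.49 ± 0.28 (adjusted p = 0.0703), NRG2 at 0.37 ± 0.09 (0.148) and MIG1 at 0.10 ± 0.15 (0.605) were not called there. SIP1, a subunit of the Snf1 kinase complex, fell by 0.88 ± 0.02 in pif1 (adjusted p = 0.00115, own arrays 0.0344) and was −0.08 ± 0.04 in the wild type. HAP3, a subunit of the Hap activator of respiratory genes, rose by 0.85 ± 0.60 in pif1 (adjusted p = 0.0384, own arrays 0.0436), and TUP1, a general co-repressor, at −0.74 ± 0.61 passed only with the pooled spread (adjusted p = 0.0196, own arrays 0.0926). HAP4, the regulatory subunit of the Hap activator, was higher in pif1 than in the wild type without zinc (0.96 ± 0.11, limma adjusted p = 0.0173) and at −0.27 ± 0.02 with zinc (adjusted p = 0.603).

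The GID complex is a ubiquitin ligase that marks Fbp1, Pck1, Icl1 and Mdh2 proteins for destruction when cells receive glucose. Of 9 of its genes and helpers tested, 5 rose (14.7% of all genes did) and 0 fell with zinc in the wild type, with a list median of 0.82. With arrays scaled to one spread, 3 rose (7.85% of all genes), without RMD5 (adjusted p = 0.0805) and GID8 (0.0815). UBC8, its ubiquitin-conjugating enzyme, rose by 1.45 ± 0.36 (limma adjusted p = 0.00236), VID24, a substrate receptor, by 0.90 ± 0.18 (adjusted p = 0.00867), FYV10, a core subunit, by 0.82 ± 0.16 (adjusted p = 0.00247) and RMD5, a RING subunit, by 0.48 ± 0.08 (adjusted p = 0.0182). GID8, another core subunit, was called at 1.05 ± 1.26 (adjusted p = 0.0421) from arrays at 1.94 and 0.15, which differ by more than the mean. In pif1, 3 of 9 rose (15.5% of all genes) and 0 fell, with a median of 0.09. Of these only UBC8 passed from the pif1 arrays alone (1.21 ± 0.57, adjusted p = 0.00543, own arrays 0.00144). RMD5 at 0.61 ± 0.07 (adjusted p = 0.00658, own arrays 0.198) and FYV10 at 0.55 ± 0.18 (adjusted p = 0.0144, own arrays 0.262) did not. VID24 was −0.16 ± 0.53 for zinc in pif1 (adjusted p = 0.564), yet higher in pif1 than in the wild type on the arrays labelled with zinc (1.27 ± 0.25, limma adjusted p = 0.0242). Its difference in zinc response was −1.07 from the zinc arrays, and from the mutant arrays 0.90 as labelled and −0.90 with their labels for zinc exchanged. Of the 9 genes, 7 could be tested for a difference in zinc response between the strains, and limma called 0 (0 of all 3857 genes).

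The list of irreversible steps of glycolysis held the highest zinc ratios of all these lists, those of GLK1 and HXK1. In the wild type, 4 of 8 rose and 1 fell (median 0.50). GLK1, glucokinase, rose 6.77-fold (2.76 ± 0.16, limma adjusted p = 5.74e-05), HXK1, hexokinase 1, by 2.43 ± 0.85 (adjusted p = 0.000222) and PYK2, a second pyruvate kinase, by 1.47 ± 0.01 (adjusted p = 0.000465). In pif1, 4 of 9 rose and 2 fell. GLK1 rose by 2.02 ± 0.70 (adjusted p = 0.000324) and HXK1 by 2.16 ± 0.13 (adjusted p = 0.000415), and these were the 2 calls of the list that the pif1 arrays gave alone. PYK2 at 0.66 ± 0.22 (adjusted p = 0.0143) and PFK2, a phosphofructokinase subunit, at −0.83 ± 0.64 (adjusted p = 0.0476) did not pass there (own arrays 0.152 and 0.0527). PFK2 had values on these 2 arrays only. It lies in a run of IDs whose zinc ratios are shifted by 1 ID between the strains, so its ratio may belong to a neighbouring ID. HXK2 is counted in this list and among the regulators.

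Of the reversible steps shared by glycolysis and gluconeogenesis, 0 of 10 genes passed in any comparison. For part of this list, however, the ratios may not be gene by gene measurements. On at least 6 of the 8 arrays, 13 highly expressed genes lay within 0.002 of the deposited ratio of TDH3, 6 of them (with TDH3) in this list. CDC19, the main pyruvate kinase, was a further one. No member of the 8 shared that ratio on more than 1 array. What makes these values alike was not tested. In the peroxisomal beta-oxidation list, 1 of 10 rose in the wild type, TES1, a thioesterase, at 0.78 ± 0.51 (limma adjusted p = 0.0267), which with arrays scaled to one spread did not pass (0.104), and 0 of 8 in pif1. SPS19, an auxiliary enzyme of this pathway, was higher in pif1 than in the wild type without zinc (1.29 ± 0.28, limma adjusted p = 0.0263).

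**Figure D4:**
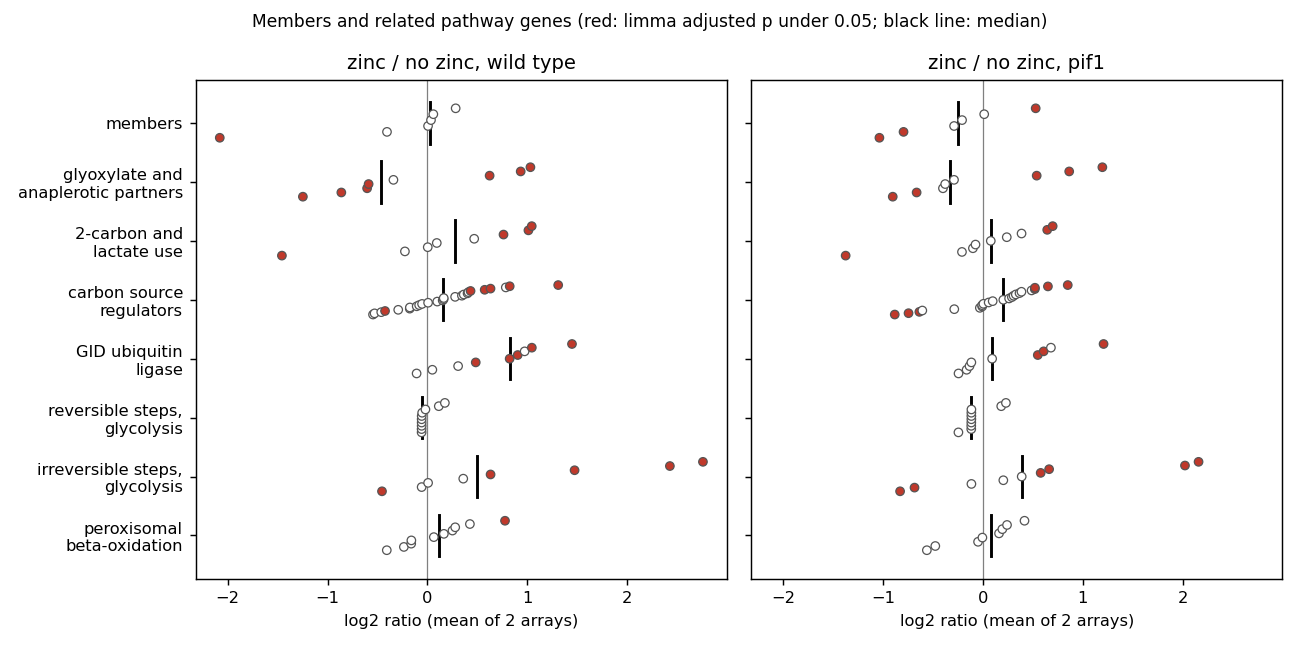
Mean log2 ratio with zinc over without zinc (horizontal axis, 2 arrays) of each tested gene in the wild type (left) and in pif1 (right), grouped by list; red points have a limma adjusted p under 0.05 and black lines are list medians. The GID list has its median at 0.82 in the wild type and 0.09 in pif1, and the reversible glycolysis list holds several genes at the same ratio.

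Over the 8 centred ratios, the members did not resemble each other closely. Pearson correlations among the 6 ran from −0.726 (ICL1 with MDH3) to 0.607 (ICL1 with MDH2), and MLS1 and ICL1 correlated at 0.02. These are descriptions over 8 arrays that share RNAs. The genes named next were picked as the highest of 3857, which by itself favours a high r, and no r was tested. Among 3857 genes, those most like MLS1 were SGE1 (r = 0.994), CIA2 (0.989) and SSN3 (0.989), and those most like MDH2 were IGD1 (0.96), SDS23 (0.955) and BAT2 (0.953). MDH3 was most like ARF1 (0.996), XPT1 (0.994) and ATP7 (0.991). For the other members these genes were THP3 (0.884), NVJ1 (0.852) and BSP1 (0.841) for ICL1, YOR331C (0.964), LGE1 (0.916) and MRS2 (0.9) for FBP1, and EAP1 (0.907), HST2 (0.889) and AGE2 (0.871) for JEN1.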

How the data were processed

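The log2 ratios analysed were deposited by the authors as a single table of 8 array columns, with 1 row per ID; 0 columns belonged to other samples. Per the labels, the filter on spots (a diameter of at least 120 um, fluorescence of at least 100 units) came before deposit, and labelled cDNA was prepared with 8 ug of total RNA. Scanner, background correction, normalization and log base are not given in the sources used here. Base 2 was assumed, and ratios were read with the RNA named first on top. The dyes in the labels fix which RNA each channel held, and the deleted PIF1 was strongly negative where pif1 was named first. The centring before deposit is unknown: column medians were −0.064 and −0.036 (zinc in the wild type), 0.0745 and −0.0365 (zinc in pif1), −0.033 and −0.013 (pif1 without zinc), and −0.027 and −0.027 (pif1 with zinc). Of all pairs of arrays, the lowest correlated at −0.365 (wild-type zinc replicate 1 with pif1 replicate 2 without zinc, 4642 genes); the direction was kept. Values above 16 in size (2, both of PIF1) were set to missing. In a run of 75 IDs the zinc ratios of the strains are shifted against each other by 1 ID. Wild-type ratios there correlated with the pif1 ratios of the next ID (r = 0.914, 51 genes) and not with those of the same ID (r = −0.078, 40 genes). Which of these arrays hold the shift was not tested. The run holds no member and, of the lists, only PFK2.

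After each array's median was subtracted, ratios were fitted by least squares with limma 3.58.1 under R 4.3.3, with 1 coefficient per comparison and a spread moderated and pooled over all 8 arrays. Genes with both values of a comparison were tested (all 8 for the difference in zinc response), with Benjamini-Hochberg adjustment over all of them and a threshold of 0.05. The number of arrays limits the precision. The code was tested on simulated data. Symbols came from NCBI's R64 table by locus tag (5639 of 6212 IDs matched, and 107 of 109 list genes), and VID28 and ECI1 were not analysed here. The members and lists were chosen with earlier results of these data known. Named genes are all members, up to 3 per list and comparison with the largest mean among those called with the same sign on both arrays, a set of pathway genes (PIF1, CIT2, ACO1, MDH1, SFC1, IDP2, CAT8, ADR1, MIG1 and SNF1), and the 3 genes most like each member; DAL7 was added afterwards. Alternatives were no centring, arrays scaled to one spread, each comparison's own arrays, a replicate block, a dye term, genes with all 8 values, a loop fit over the 4 kinds of RNA, and leaving out each array. Exchanging the mutant arrays' labels for zinc was added after seeing the data.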

Additional observations from a re-analysis of the deposited data

Results flagged for a closer look

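There were 6 named genes that had opposite signs on every array of 2 comparisons that share a contrast. The share of all genes with such signs was not counted, so this number is a description only. For pif1 over wild type, the mean with zinc minus the mean without was 0.84 for MLS1 (−0.53 and −0.18 without, 0.52 and 0.44 with zinc) and 0.36 for MDH2 (−0.04 and −0.41 without, 0.17 and 0.10 with zinc). Tested from these arrays alone or together with the zinc arrays, neither difference passed (limma adjusted p of 0.902 and 0.271 for MLS1, and 1.0 and 0.993 for MDH2). The same difference was 0.40 for GLK1 (−0.11 and −0.23 without, 0.38 and 0.08 with zinc), −0.27 for RMD5 (0.24 and 0.27 without, −0.02 and −0.01 with zinc) and −1.22 for HAP4 (0.88 and 1.03 without, −0.26 and −0.28 with zinc). With the zinc arrays the combined difference did not pass for GLK1 or RMD5 (limma adjusted p = 0.993 for each), and it was not tested for HAP4, which lacked values. The sign of each difference on the mutant arrays turns if their labels for zinc are exchanged. Between the zinc comparisons, GID8 differed by −1.29 (1.94 and 0.15 in the wild type, −0.35 and −0.13 in pif1), and its combined difference did not pass (limma adjusted p = 0.944).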

How the results depend on the processing

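Only 2 arrays stand behind each ratio, the pif1 zinc pair is the noisiest, and a pooled spread favours calls there. Over 30 member results and 312 alternative fits, 263 kept direction and side of the threshold, 6 gained a call, 7 lost one, and 19 (with an array left out) and 17 (other settings) changed sign; none of the values that changed sign passed in either fit, and the largest was 0.3565. The calls gained or lost include fits with an array left out, where the spread came from the other comparisons. The cause of these changes was not tested.

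Genes called fell from 1403 to 713 for zinc in the wild type and from 1338 to 413 for zinc in pif1 with arrays scaled to one spread, and rose from 96 to 440 for pif1 without zinc and from 55 to 371 with zinc. Own arrays alone gave 1944, 526, 592 and 267. The loop fit gave 63 for pif1 without zinc. With 1 array left out, the counts were 426 to 460 for zinc in the wild type, 0 to 12 and 1 to 2 for pif1 without and with zinc, and 0 to 12 for the difference in zinc response. The difference in zinc response gave 6 calls from the zinc arrays and 7 from the mutant arrays. In an alternative added after seeing the data, it gave 19 with the mutant arrays' labels for zinc exchanged (0 members). Members called were 2 for zinc in the wild type from its own arrays, the replicate block and the loop fit. They were 0 (scaled) and 1 (own arrays) for zinc in pif1, and 1 under both for pif1 with zinc.

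Same-numbered arrays deviated together (r of 0.438 to 0.552 across 3857 genes), but with 2 numbers that follow the dyes in part they were not taken as pairs. The replicate block gave 1978, 1915, 291 and 122 calls in the 4 comparisons and 1 for the difference. With it MDH2 passed for zinc in the wild type (adjusted p = 0.0408).

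Without centring, the sign turned for zinc in the wild type of ICL1 (−0.044) and JEN1 (−0.0145), and for the difference of FBP1 (0.0225) and JEN1 (0.0118). Scaling turned the difference of MDH2 (0.075) and FBP1 (0.0889), and the mutant arrays alone that of ICL1 (0.0845), MDH2 (0.3565) and FBP1 (0.2465). The loop fit turned ICL1 (−0.0885) and FBP1 (−0.0693) for zinc in the wild type, ICL1 (0.089) and MDH2 (0.0233) for pif1 without zinc, and ICL1 (−0.0155), MDH2 (−0.1137), MDH3 (0.0175) and FBP1 (−0.0407) with zinc. With an array left out, values ran from −0.109 to 0.121 (ICL1), −0.149 to 0.267 (FBP1) and −0.069 to 0.14 (JEN1) for zinc in the wild type. They ran from −0.1165 to 0.1445 (JEN1) for zinc in pif1, and from −0.099 to 0.088 (ICL1) and −0.084 to 0.24 (JEN1) for pif1 without zinc. With zinc they ran from −0.074 to 0.232 (ICL1), −0.172 to 0.111 (MDH3), −0.067 to 0.242 (FBP1) and −0.026 to 0.142 (JEN1). For the difference they ran from −0.332 to 0.058 (MDH2), −0.114 to 0.094 (FBP1) and −0.1017 to 0.0602 (JEN1).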
